A study of Homo sapiens with 28 samples.

Results

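The comparison described here sets replicates 1 and 2 against replicates 3 and 4 of HepG2 cells, an established human line from a liver tumour with many traits of hepatocytes. It uses 16 of 28 libraries: 4 each of cells given water (H2O), 0.5 µM cadmium chloride (CdCl2, in water), the solvent dimethyl sulfoxide (DMSO), and 10 µM perfluorooctane sulfonate (PFOS, in DMSO). The 8 libraries of replicates 1 and 2 (2 from each group) were set against the 8 of replicates 3 and 4, with the group as a term, and 731 of 18849 tested genes differed at an adjusted p under 0.05. These 731 are called the genes, or members, of the split below, and each set of 8 libraries a side. The remaining 12 libraries, 4 each from cells given 100 nM TCDD, 75 µM bisphenol A (BPA) or 0.1 µM tributyltin chloride (TBTCl), all in DMSO, played no part in choosing them. All groups shared 24 h without serum before exposure, then 24 h of exposure, and are of 1 cell line. An update in the series text swapped the labels of TCDD and PFOS. The labels speak of 4 independent experiments with technical triplicates, without stating whether equal numbers share an experiment across groups. A difference between numbers is therefore called only that.

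The split was chosen because these 16 libraries showed it. Levels and fold changes in the 16 are thus given as a description, with no test, and tests are kept for the other 12 libraries or for differences between groups. Levels are counts per M (CPM) with TMM scaling, and a log2 difference is replicates 1 and 2 minus replicates 3 and 4, with its standard error (SE).

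Several pathways with well known target genes run through the members. Hypoxia-inducible factors bind DNA when oxygen is short and raise the genes of glycolysis, glucose uptake, pH control and mitochondrial clearance. The aryl hydrocarbon receptor (AHR) is a ligand-activated transcription factor whose classical target is CYP1A1, and NRF2 raises antioxidant and detoxifying enzymes. IGF2 is an imprinted fetal growth factor that HepG2 cells make in large amounts, and the integrated stress response, through ATF4, raises genes of amino acid supply.

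The core letters that the hypoxia-inducible factors and the AHR bind are short. They are shown here in the 250 bases before a RefSeq start of 4 genes of the split or its pathways, on GRCh38.p14. Where a gene had several such windows, the one of lowest coordinate was taken. These starts can differ from those of the gene spans given below, and the windows of LDHA and CYP1A1 reach into their spans. Capitals mark ACGTG, searched on both strands, in CA9, LDHA and ANKRD37, and GCGTG, searched on both strands, in CYP1A1. Overlapping matches were counted, so that the palindrome CACGTG counts as 2. The intervals are chr15:74725529-74725778 (minus strand) for CYP1A1, chr9:35673678-35673927 (plus) for CA9, chr11:18394313-18394562 (plus) for LDHA and chr4:185396591-185396840 (plus) for ANKRD37.
CYP1A1: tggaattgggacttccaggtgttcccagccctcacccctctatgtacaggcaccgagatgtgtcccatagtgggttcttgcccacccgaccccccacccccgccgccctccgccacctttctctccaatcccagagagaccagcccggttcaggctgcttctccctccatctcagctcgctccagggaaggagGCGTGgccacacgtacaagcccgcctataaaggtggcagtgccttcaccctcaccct
CA9: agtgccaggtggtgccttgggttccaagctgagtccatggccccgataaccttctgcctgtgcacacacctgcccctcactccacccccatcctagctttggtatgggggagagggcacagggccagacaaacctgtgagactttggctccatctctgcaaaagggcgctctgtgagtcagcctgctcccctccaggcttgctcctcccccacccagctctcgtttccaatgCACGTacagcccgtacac
LDHA: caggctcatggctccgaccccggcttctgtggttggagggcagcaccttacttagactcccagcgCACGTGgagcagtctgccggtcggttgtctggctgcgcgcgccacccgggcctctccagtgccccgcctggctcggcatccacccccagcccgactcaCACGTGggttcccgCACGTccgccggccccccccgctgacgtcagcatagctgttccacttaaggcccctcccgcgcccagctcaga
ANKRD37: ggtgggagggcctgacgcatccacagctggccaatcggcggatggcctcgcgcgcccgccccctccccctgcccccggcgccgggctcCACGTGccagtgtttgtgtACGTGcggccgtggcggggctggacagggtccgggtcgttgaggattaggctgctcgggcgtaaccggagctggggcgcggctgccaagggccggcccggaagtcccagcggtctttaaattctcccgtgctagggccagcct

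The windows held 1 match in CYP1A1, 1 in CA9, 5 in LDHA and 3 in ANKRD37. ACGTG was present in 18.5% of the 35116 windows in the RefSeq table and GCGTG in 32.2%. Of 23 hypoxia and glycolysis genes, 20 had a window, and 13 of these (65%) held ACGTG in at least 1 of their windows, against 27.9% of the 11973 tested genes with a window. Among all genes of the split with a window, ACGTG was present in 94 of 287 that were lower in replicates 1 and 2 (32.8%) and in 67 of 257 that were higher (26.1%). GCGTG was present in 155 of the 287 lower genes (54.0%) and in 109 of the 257 higher ones (42.4%), against 50.9% of tested genes. A match describes letters, not a bound site.

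Library totals ran from 28.9 to 66.0 M counts (median 46.5 M), so that 3 counts stand for 0.0454 to 0.104 CPM, counting error only. Hepatocyte genes were high in all 28 libraries, ALB between 5943 and 24839 CPM and HNF4A between 233 and 544 CPM. Of the defining markers of other cell types, PTPRC was at 0 in 23 libraries, CD3E in 26 and COL3A1 at or below 0.236 CPM. PDGFRB (1.61 to 23.3 CPM, median 12.0) and PECAM1 (2.37 to 6.45 CPM) were detected in all 28. So were COL1A1 (0.421 to 3.46 CPM) and VWF (0.352 to 1.36 CPM). The 9 markers of other cell types summed to 13.4 to 25.4 CPM in replicates 1 and 2 of the 16 libraries and to 19.8 to 31.6 CPM in replicates 3 and 4, and their part in the results was not tested. Among biliary markers, KRT19 (218 to 782 CPM), SOX9 (122 to 257 CPM) and EPCAM (112 to 213 CPM) were detected in all 28 libraries. KRT7 stayed at or below 0.175 CPM, and CFTR was at 0 in 25 libraries. In RNA of whole cultures, fewer cells of a kind and less RNA per cell cannot be told apart. CYP1A1, the label check for TCDD, lay between 2841 and 6410 CPM in the TCDD libraries and at or below 462 CPM in all others.

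Of the 731 genes, 336 (1.78% of tested genes) were higher in replicates 1 and 2 and 395 (2.1%) were lower, 3.88% in all. The median size was 0.52 on the log2 scale, and 131 of the 731 differed at least 2-fold. In 729 genes the sides differed in the fitted direction in all 4 groups, against 6003 of the 18849 tested genes. The members were chosen on the shift common to these groups, which favours such a count. The genes nearest the threshold on the inside were ENSG00000279069 (9.06 against 7.15 CPM) and ELOVL6, a fatty acid elongase (48.3 against 70.3 CPM). Nearest on the outside were PRSS30P (0.214 against 0.0957 CPM) and ICAM1, an adhesion molecule (205 against 286 CPM). Protein-coding genes made up 638 of the 731, 300 higher and 338 lower, which was 4.76% of the 13414 tested. Antisense genes made up 26 of the 731, 22 lower and 4 higher, which was 1.53% of the 1699 tested. These are uncertain because it is not known how the counting treated strand. Members lay on every autosome and on X, from 2.26% of tested genes on chromosome 13 to 5.82% on chromosome 20.

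CYP1A1 (ENSG00000140465, chr15:74719542-74725610, GRCh38), the detoxifying monooxygenase that defines AHR activity, had the largest fitted difference of all tested genes. In H2O its level was 16.1 and 13.2 CPM in replicates 1 and 2, then 2.72 and 2.04 CPM in replicates 3 and 4. In CdCl2 the 4 values were 26.5, 36.7, 4.03 and 3.65 CPM. In DMSO they were 9.99, 16.9, 3.73 and 2.82 CPM. The lowest of the 8 libraries of replicates 1 and 2 (9.99 CPM) thus lay above the highest of replicates 3 and 4 (4.03 CPM), PFOS included with 16.1, 10.7, 1.5 and 1.68 CPM. The log2 difference was 2.68 (SE 0.175), a fold of 6.40. Averaged over the 4 groups on the log2(CPM + 1) scale, the gap between the sides was 2.28. Between the averages of numbers 1 and 2 it was 0.0890, and between those of 3 and 4 it was 0.153. Gaps of opposite direction in different groups cancel in such averages. Replicate 1 lay above replicate 2 in H2O and PFOS and below it in CdCl2 and DMSO.

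In the 12 libraries outside the rule, the same direction held for CYP1A1 within TBTCl, at 10.5 and 18.1 CPM against 3.58 and 2.78 CPM. BPA libraries had 293 and 462 CPM in replicates 1 and 2, and 159 and 53.5 CPM in 3 and 4. In TCDD, which drives the gene through the AHR, the sides overlapped, with 2841, 6410, 4959 and 4243 CPM. The fitted difference over the 12 libraries was 1.32 (SE 0.396), which did not pass the threshold (edgeR adjusted p = 0.312).

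IGF2 (ENSG00000167244, chr11:2129112-2149603) was lower in replicates 1 and 2, with a different arrangement of the numbers. In H2O the 4 replicates had 1532, 2917, 4482 and 7827 CPM. In CdCl2 they had 1384, 3141, 2270 and 4891 CPM, so that replicate 2 lay above replicate 3. DMSO gave 1973, 1916, 4241 and 6216 CPM, and PFOS gave 1840, 3347, 3597 and 6292 CPM. Replicate 4 was the highest in all 4 groups and the sides overlapped. Over the 8 against 8 libraries the log2 difference was -1.13 (SE 0.245), with medians of 1944 and 4687 CPM. The gap of 1.13 between the sides on the log2(CPM + 1) scale stood beside 0.733 between numbers 1 and 2 and 0.817 between 3 and 4. Reads of the readthrough gene INS-IGF2 overlap IGF2, so its level carries that uncertainty.

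In the other 12 libraries IGF2 stood at 977, 3118, 3552 and 3608 CPM in TCDD, at 1318, 688, 2469 and 4654 CPM in BPA and at 2052, 1156, 3740 and 4822 CPM in TBTCl. Both low-numbered replicates lay below both high-numbered ones in each of these 3 groups, narrowly so for replicate 2 in TCDD. The log2 difference was -1.34 (SE 0.297, edgeR adjusted p = 0.240), no smaller in size than in the 16 libraries and short of the threshold.

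**Figure D1:**
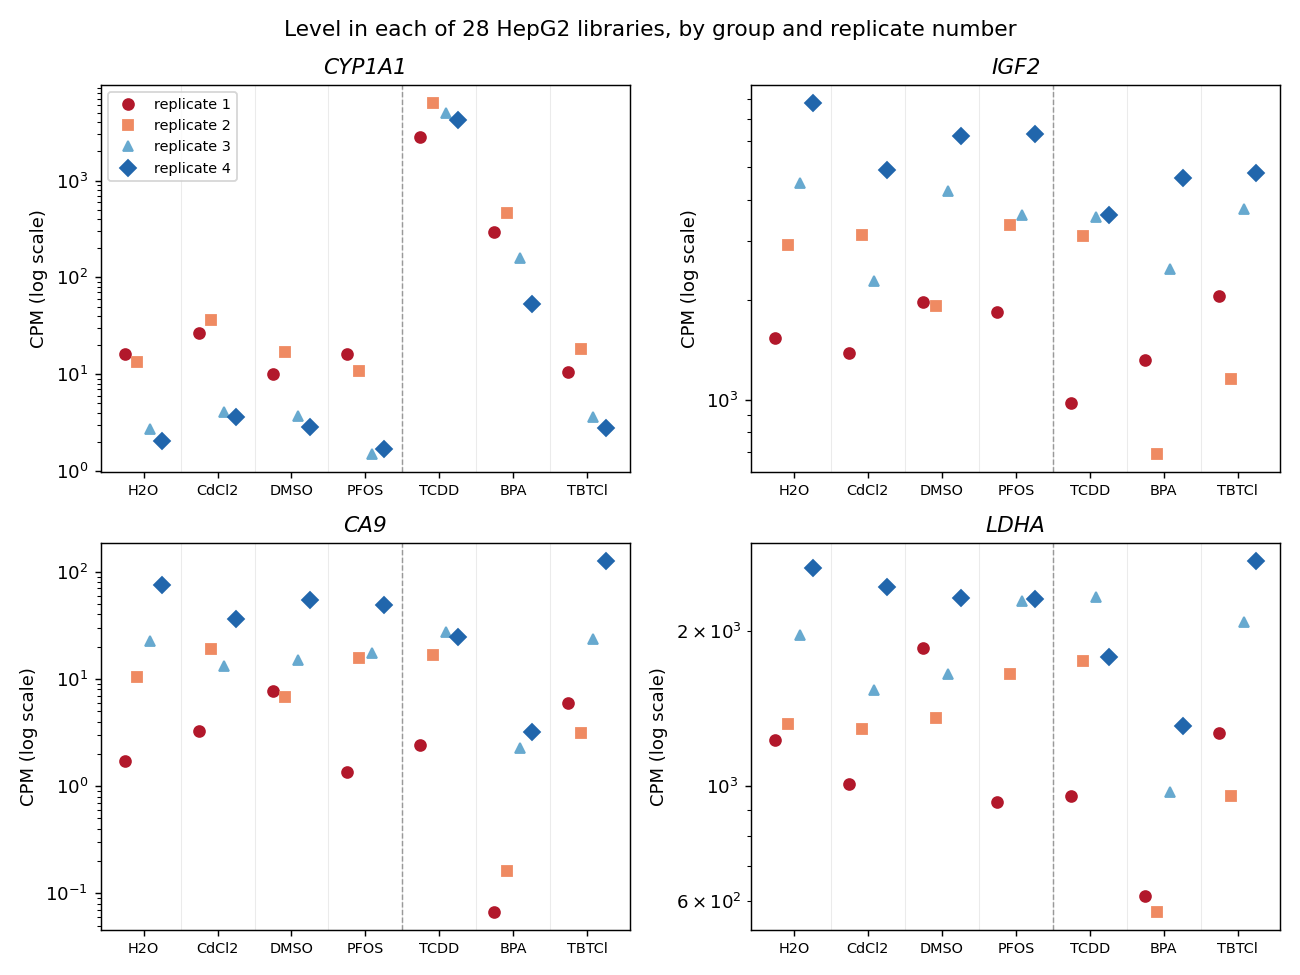
CPM on a log scale of CYP1A1, IGF2, CA9 and LDHA in each of 28 libraries, by group on the horizontal axis; each point is 1 library, marked by replicate number, and the dashed line separates the 4 groups of the split from TCDD, BPA and TBTCl. CYP1A1 falls into pairs 1, 2 and 3, 4 (9.99 to 36.7 against 1.5 to 4.03 CPM left of the line), while IGF2 has its highest value in replicate 4 of each group.

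No gene passed the adjusted threshold when the split was tested in the 12 libraries alone (0 called by edgeR, 1978 genes or 10.5% at an unadjusted p under 0.05; DESeq2 called 176). The unadjusted count ran from 1198 without TBTCl replicate 2 to 3765 without TCDD replicate 2, and was 583 without number 1. The fitted directions were largely those of the 16: 724 of the 731 genes had the same sign, against 74.8% of all tested genes. At an unadjusted p under 0.05 and in the direction of the 16, there were 434 of the 731 (59.4%), against 10.0% of all tested genes. In 491 genes (67.2%) the sides differed in that direction in each of the 3 groups, against 24.7% of all tested genes. Across the 731 genes the 2 sets of differences had a Pearson r of 0.928, and across all tested genes 0.664; genes are not independent replicates, and the members were chosen to be far from 0 on one axis. The median size was 0.46 in the 12 libraries. If a number marks a shared experiment, the 12 libraries come from the same 4 experiments as the 16, so an effect of side and an effect of those experiments cannot be told apart.

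**Figure D2:**
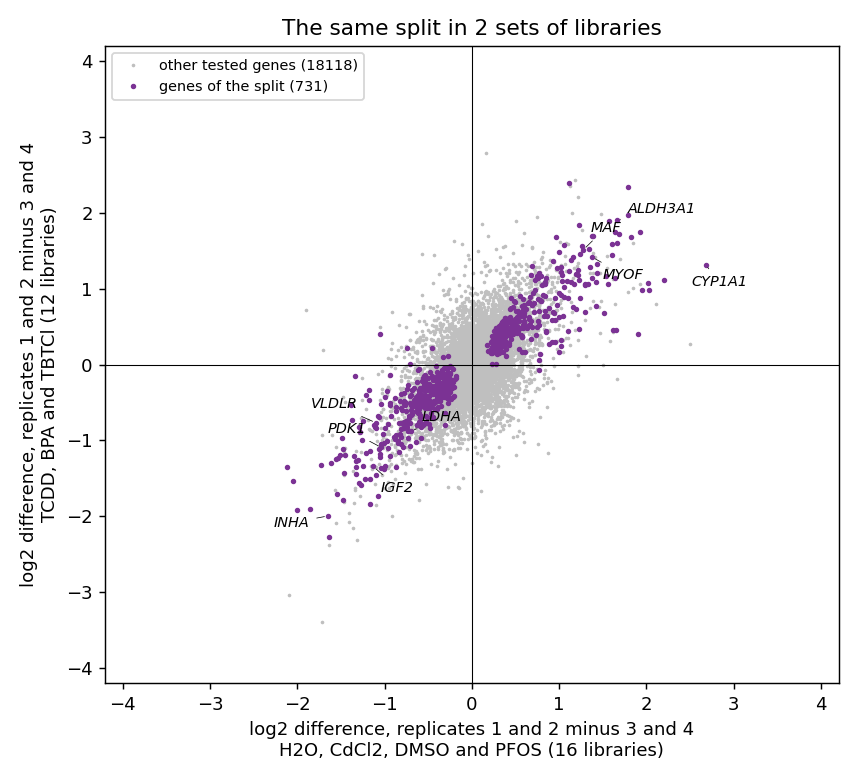
Log2 difference, replicates 1 and 2 minus 3 and 4, for each of 18849 tested genes in the 16 libraries (horizontal) and in the 12 others (vertical); purple points are the 731 genes of the split. Of these, 724 lie in the quadrants where both differences have the same sign.

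Among the 7 genes with opposite fitted signs were SH2B3, SLC44A2, ATF3, PIP5KL1, SMIM10L2B and TPM1-AS. ATF3, a stress-induced transcription factor, went from a difference of -0.71 in the 16 to 0.01 in the 12, and PIP5KL1 from -1.05 to 0.40. None of the 7 had an unadjusted p under 0.05 in the 12 libraries, their p running from 0.263 (PIP5KL1) to 0.975 (ATF3).

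Among the 3 compounds, the size of the split was uneven. In TBTCl, 721 of the 731 genes differed in the direction of the 16, with medians of 0.92 for the 336 higher genes and -0.90 for the 395 lower ones. TBTCl replicate 4 stood apart from its group: of all 28 libraries it had the highest share of counts in ribosomal protein genes (11.8%) and the lowest scaling factor (0.861). Without it, 714 genes differed in that direction and the medians were 0.69 and -0.68. In TCDD it was 602 genes, with medians of 0.29 and -0.16, and in BPA 601 genes, with medians of 0.35 and -0.26. As shares of the 731 these were 82.4% in TCDD and 82.2% in BPA, and 98.6% in TBTCl with all its libraries. The share of all tested genes in that direction was not counted group by group. Over the 12 libraries together it was 74.8%. The 4 groups that chose the genes had medians of 0.47 to 0.60 and of -0.42 to -0.61. Medians over all tested genes stayed between -0.03 and 0.02. A test of whether the difference between the sides was the same in the 3 compounds called no gene (edgeR, 1984 genes or 10.5% at an unadjusted p under 0.05; DESeq2 called 126). Without TBTCl replicate 3 that test called 2809 genes and without TCDD replicate 1 it called 15, so single libraries decide it. Its unadjusted count ran from 909 without TBTCl replicate 1 to 6214 without TBTCl replicate 3.

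**Figure D3:**
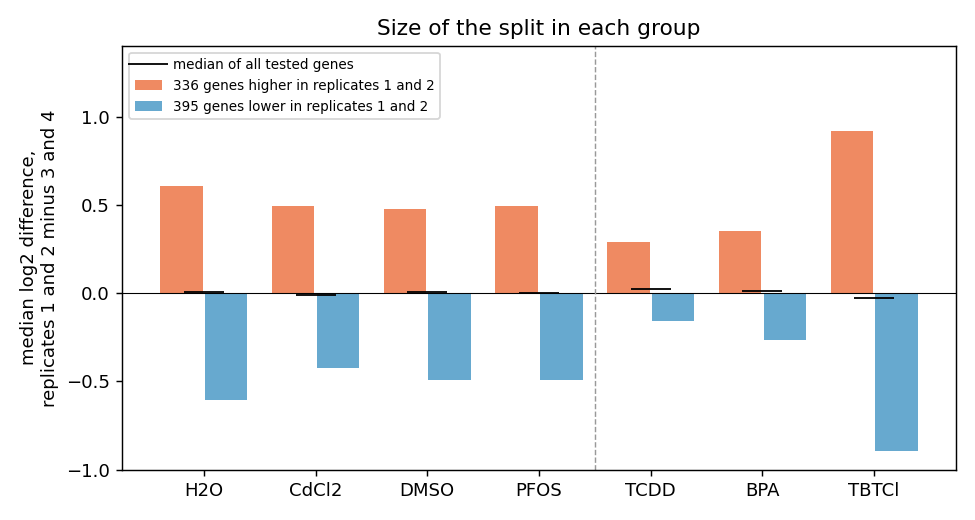
Median log2 difference, replicates 1 and 2 minus 3 and 4, of the 336 higher and 395 lower genes in each group, with the median of all tested genes as a short line; the dashed line separates the groups that chose the genes. Bars are tallest in TBTCl (0.92 and -0.90) and shortest in TCDD (0.29 and -0.16).

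TCDD replicate 2 stood with replicates 3 and 4 for several members, as in IGF2 above. Without that 1 library, the split in the 12 called 481 genes, 204 of them among the 731, where the full set called none. Without the TCDD group it called 196 genes, 86 of them among the 731.

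Hypoxia and glycolysis genes were the list with the largest shift. Of 23 tested, 11 were among the 395 genes lower in replicates 1 and 2 (2.1% of tested genes) and none among the 336 higher, and all 23 had a negative fitted difference. The median log2 difference was -0.80, against 0.00 over all tested genes. All 23 were again negative in the 12 libraries, with a median of -0.88, and 19 of the 23 had an unadjusted p under 0.05, where 5.45% of all tested genes were lower by that measure. None passed the adjusted threshold there. The list's mean deviation from the group mean, on the log2(CPM + 1) scale, was highest in replicate 4 of every group but TCDD. The sides overlapped in CdCl2, with replicate 2 (0.01) above replicate 3 (-0.11), in DMSO, with replicate 1 (-0.01) above replicate 3 (-0.04), and in TCDD, with replicate 2 (0.21) above replicate 4 (0.09).

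LDHA (ENSG00000134333, chr11:18394388-18408425), which makes lactate from pyruvate, had 932 to 1851 CPM in replicates 1 and 2 (median 1307) and 1536 to 2647 CPM in replicates 3 and 4 (median 2295). The sides overlapped only through DMSO replicate 1 (1851 CPM) and PFOS replicate 2 (1653 CPM). Its log2 difference was -0.70 (SE 0.148) in the 16 and -0.88 (SE 0.168, edgeR adjusted p = 0.227) in the 12. PDK1 (chr2:172555373-172608669), a kinase that inhibits mitochondrial pyruvate dehydrogenase, had 19.5 to 51.8 CPM against 35.7 to 94.8 CPM. Its difference was -1.04 (SE 0.216) in the 16 and -1.09 (SE 0.214, adjusted p = 0.227) in the 12.

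CA9, a carbonic anhydrase of the cell surface that regulates pH, was picked after its values were seen, since it lies just outside the threshold in the 16. In H2O it had 1.71, 10.3, 22.4 and 75.8 CPM in replicates 1 to 4. PFOS gave 1.36, 15.8, 17.6 and 48.7 CPM, and DMSO 7.77, 6.85, 15.1 and 54.4 CPM. Replicate 4 was the highest in each of the 4 groups, and the gap between the sides (2.09 on the log2(CPM + 1) scale) was not much larger than that between numbers 1 and 2 (1.75) or 3 and 4 (1.58). In TBTCl the values were 6.01, 3.15, 23.5 and 127 CPM, and in BPA they were 0.0665, 0.161, 2.25 and 3.20 CPM. The log2 difference in the 12 was -3.04 (SE 0.620, edgeR adjusted p = 0.227).

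Other members of the list behaved alike. EGLN3, an oxygen-sensing hydroxylase that marks the hypoxia factors for decay, had a difference of -1.64 in the 16 and -2.27 in the 12. ALDOC, a glycolytic aldolase, had 31.5 to 78.1 CPM in replicates 1 and 2 and 81.0 to 162 CPM in replicates 3 and 4, with no overlap, and differences of -1.06 and -1.18. ANKRD37, an ankyrin repeat protein, stood at -0.84 and -1.15, P4HA1, a collagen prolyl hydroxylase, at -0.82 and -1.05, and BNIP3, a mitophagy receptor, at -0.87 and -0.93. VEGFA, the angiogenic growth factor, was a member at -0.53 in the 16 but stood at -0.13 in the 12, with an unadjusted p of 0.472. SLC2A1, the basal glucose transporter, was no member, at -0.32 and -0.25.

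BHLHE40 (chr3:4979116-4985323), a transcriptional repressor of the clock, had 34.4 to 104 CPM in replicates 1 and 2 (median 54.5) and 71.3 to 226 CPM in replicates 3 and 4 (median 125). The high value among the first 8 was DMSO replicate 1. Its differences were -1.28 (SE 0.234) and, in the 12, -0.89 (SE 0.281, edgeR adjusted p = 0.323). NFIL3, a bZIP repressor, was the other member among 19 clock genes, at -0.44 and -0.30, and the clock list as a whole had a median of 0.03. Lower members made up 2.1% of all tested genes.

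Genes of amino acid supply and the integrated stress response also held many lower members. Of 20 tested, 10 were lower members (2.1% of tested genes) and none higher, with a median of -0.44 in the 16. In the 12 the median was -0.26, and 7 were lower at an unadjusted p under 0.05 (5.45% of tested genes). In BPA the list's mean deviation from the group mean did not follow the split. On the log2(CPM + 1) scale it was 0.00870, 0.0972, 0.0403 and -0.146 in replicates 1 to 4. In each other group both low-numbered replicates lay below both others. VLDLR (chr9:2621834-2660053), a lipoprotein receptor, had 5.73 to 15.2 CPM against 15.5 to 24.6 CPM with no overlap, a difference of -1.10 (SE 0.186), and -0.77 (SE 0.231, edgeR adjusted p = 0.312) in the 12. STC2, a secreted glycoprotein, had 125 to 194 CPM against 188 to 258 CPM, with differences of -0.60 (SE 0.0921) and -0.31 (SE 0.105, adjusted p = 0.355). The sides of STC2 overlapped through PFOS replicate 2 (194 CPM) and H2O replicate 3 (188 CPM).

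The ATF4 transcript itself had 383 to 459 CPM in replicates 1 and 2 and 480 to 587 CPM in replicates 3 and 4. MTHFD2, a mitochondrial folate enzyme, had 170 to 221 CPM against 242 to 300 CPM. Neither gene's sides overlapped, and on average over the 4 groups the numbers within a side lay together in both, as in CYP1A1. For MTHFD2 the gap between the sides was 0.49, against 0.0309 between numbers 1 and 2 and 0.00931 between 3 and 4. Its replicate 3 lay above 4 in H2O (300 and 279 CPM) and below it in DMSO (269 and 294 CPM), which cancels in the average. In the 12 libraries the differences were -0.30 for ATF4 and -0.42 for MTHFD2 (unadjusted p = 0.0616 and 0.0127). CHAC1, a glutathione-degrading enzyme, was also a member, at levels of 0.0825 to 0.715 CPM of which the lowest lie near the limit of 3 counts. PSPH, SLC3A2, PPP1R15A and GDF15, of the same list, had differences within 0.02 of 0 in the 16.

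Cholesterol synthesis genes were lower by less. Of 24 tested, 8 were lower members (2.1% of tested genes) and none higher, 23 had a negative sign, and the median was -0.27. The median in the 12 libraries was -0.10. MSMO1, a sterol demethylating oxidase, had 160 to 231 CPM against 220 to 265 CPM and -0.35 (SE 0.0570) in the 16. It stood at -0.35 (SE 0.171, edgeR adjusted p = 0.489) in the 12, where the side means of BPA went the other way.

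The list of AHR targets holds CYP1A1 itself. Of 13 tested, 2, CYP1A1 and ALDH3A1, were higher members (1.78% of tested genes) and 12 had a positive sign in the 16 as in the 12, with medians of 0.48 and 0.44. ALDH3A1 (ENSG00000108602, chr17:19737984-19748943), an aldehyde dehydrogenase, had 3.09 to 9.06 CPM in replicates 1 and 2 and 1.06 to 2.72 CPM in replicates 3 and 4, with no overlap. In TCDD its 4 values were 533, 413, 241 and 259 CPM, in BPA 6.58, 7.17, 1.32 and 0.867 CPM, and in TBTCl 4.56, 4.09, 0.384 and 1.08 CPM. Both low-numbered replicates thus lay above both others in each of the 3 groups. The difference was 1.66 (SE 0.247) in the 16 and 1.90 (SE 0.292, edgeR adjusted p = 0.227, unadjusted 1.5e-05) in the 12. AHR and its partner ARNT stood at 0.06 and 0.07 in the 16, and TIPARP, another target, at 0.10.

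NRF2 genes were higher in replicates 1 and 2. Of 16 tested, 5 were higher members (1.78% of tested genes) and 1, the cystine transporter gene SLC7A11, was lower (2.1%). The medians were 0.28 in the 16 and 0.40 in the 12. In the 12, 8 were higher at an unadjusted p under 0.05, where 5.05% of all tested genes were higher by that measure. TXNRD1, thioredoxin reductase, had 144 to 185 CPM against 101 to 133 CPM with no overlap, a difference of 0.44 (SE 0.0707), and 0.74 (SE 0.211, edgeR adjusted p = 0.300) in the 12. AKR1B10, an aldo-keto reductase with close family copies that may share reads, had 44.4 to 91.4 CPM against 22.1 to 66.2 CPM. Its difference was 0.84 (SE 0.188) in the 16 and 1.06 (SE 0.260, adjusted p = 0.249) in the 12. HMOX1, heme oxygenase, OSGIN1, an oxidative stress inhibitor of growth, and FTL, ferritin light chain, were the other higher members, at 0.31, 0.63 and 0.36.

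p53 targets went the same way. Of 16 tested, 5 were higher members (1.78% of tested genes) and none lower, and 15 were positive. The medians were 0.27 in the 16 and 0.30 in the 12, with 9 higher at an unadjusted p under 0.05 there (5.05% of tested genes). By the list's mean deviation the sides overlapped in CdCl2, with replicate 3 (0.07) above replicate 2 (0.03). They also did in DMSO, with replicate 3 (-0.03) above replicate 1 (-0.04), and in TCDD, where replicate 2 (-0.20) was the lowest. CDKN1A (chr6:36676460-36687339), the p21 inhibitor of the cell cycle, had 198 to 262 CPM in replicates 1 and 2 (median 243) and 123 to 239 CPM in replicates 3 and 4 (median 165). The overlap came from CdCl2 replicate 3 at 239 CPM. Its differences were 0.51 (SE 0.0998) and, in the 12, 0.71 (SE 0.143, edgeR adjusted p = 0.227). FAS, the death receptor, stood at 0.42 (SE 0.0932) and 0.58 (SE 0.164, adjusted p = 0.297). MDM2, FDXR and BTG2 were members at 0.50, 0.51 and 0.39, while BAX and BBC3, which promote cell death, stood at 0.08 and -0.20 and were no members. Of 28 genes of DNA replication and mitosis none was a member, and their median was 0.01. Over all tested genes 3.88% were members, so none in a list of 28 lies near that share.

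Heat shock genes had 2 higher members of 13, HSPH1 (0.60) and HSPA1B (0.66), and medians of 0.31 and 0.29. Higher members made up 1.78% of all tested genes. HSPA1B and its near-identical copy HSPA1A can split reads, so their single values are uncertain. Among drug metabolism and bile acid genes, 3 of 15 were higher members: CYP3A5, a drug-oxidising enzyme, NR1I2, the pregnane X receptor, and ABCC2, an export pump. CYP3A5 had 3.41 to 6.93 CPM against 1.55 to 6.10 CPM, with differences of 0.88 (SE 0.192) and 0.74 (SE 0.163, edgeR adjusted p = 0.237). CYP3A7, its fetal relative, had 0.731 to 1.77 CPM against 0.116 to 1.77 CPM, was no member, and stood at 0.87 (SE 0.186, adjusted p = 0.227) in the 12. These 2 genes are similar in sequence and may share reads.

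IGF axis genes other than IGF2 did not share a direction as a group. Of 17 tested, IGF2 and IGFBP3 were lower members and none was higher, and the medians were -0.14 in the 16 and -0.07 in the 12. IGFBP1, a secreted binding protein made by the liver, fell outside the threshold with wide values: 139, 900, 1189 and 1991 CPM in H2O and 83.8, 944, 1678 and 1041 CPM in PFOS. The receptors IGF1R and IGF2R stood at -0.12 and 0.12. Of 12 imprinted genes tested, 1 was a member, DLK1, a membrane ligand, at 409 to 601 CPM against 538 to 951 CPM, with differences of -0.54 (SE 0.0892) and -0.58 (SE 0.171, edgeR adjusted p = 0.307). IGF2, itself imprinted, is counted in the IGF axis list. Lower members made up 2.1% of all tested genes.

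Immediate early genes had 3 lower members of 20, ATF3, JUND and ZFP36. FOSL1 and JUN, AP-1 subunits with the smallest p of that list in the 12 libraries, were no members. FOSL1 had 12.9 to 19.8 CPM against 10.6 to 16.9 CPM and stood at 0.26 (SE 0.125) and 0.59 (SE 0.194, edgeR adjusted p = 0.346). JUN had 37.7 to 63.1 CPM against 36.0 to 65.0 CPM and stood at -0.07 (SE 0.146) and 0.34 (SE 0.124, adjusted p = 0.384). Interferon genes had 2 higher members of 14, OAS1 (0.48, then 0.46 in the 12) and IFI27 (1.61, then 0.46). Hepatocyte genes had 1 lower member of 20, TF, which encodes transferrin, at -0.59 and -0.67. Metallothioneins, ER chaperones, matrix genes and acute phase genes held no member. Over all tested genes 1.78% were higher members and 2.1% lower ones, so 1 member or none in lists this small lies near that share.

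**Figure D4:**
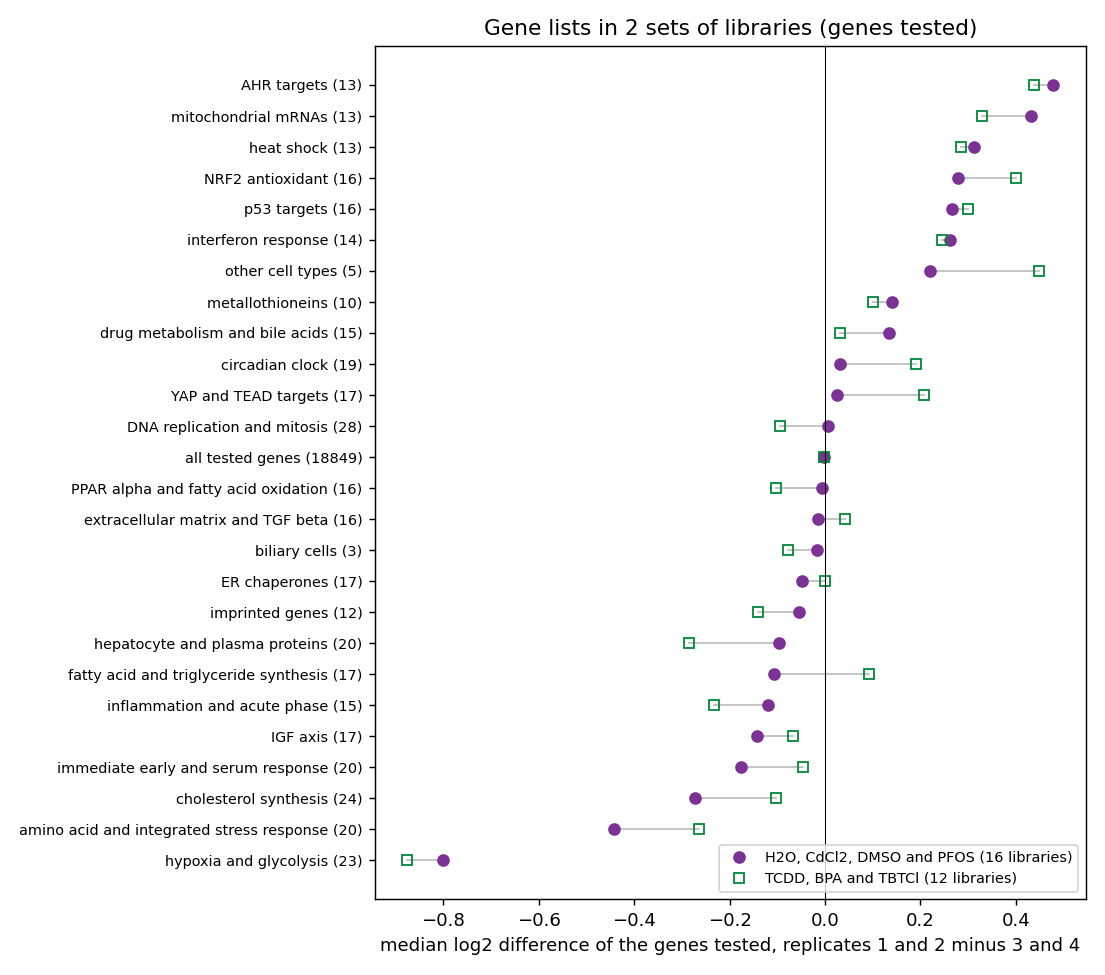
Median log2 difference, replicates 1 and 2 minus 3 and 4, of each gene list in the 16 libraries (filled circles) and in the 12 others (open squares), with the number of genes tested in brackets. The hypoxia and glycolysis list lies lowest in both sets (-0.80 and -0.88), and AHR targets lie highest in the 16 (0.48).

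Several of the largest differences lay outside these lists. MYOF (chr10:93306429-93482317), a membrane fusion and repair protein, had 3.88 to 7.66 CPM in replicates 1 and 2 against 1.33 to 3.18 CPM, with no overlap and a difference of 1.38 (SE 0.126). In the 12 it stood at 1.42 (SE 0.345, edgeR adjusted p = 0.249), with TCDD replicate 2 (9.98 CPM) below TCDD replicates 3 and 4 (15.1 and 18.3 CPM). MAF (chr16:79585843-79600714), a bZIP transcription factor, had 7.55 to 15.7 CPM against 2.09 to 7.02 CPM, again without overlap, with differences of 1.28 (SE 0.264) and 1.51 (SE 0.281, adjusted p = 0.227). GSTA1, a glutathione transferase with close family copies that may share reads, had 6.54 to 36.3 CPM against 3.46 to 8.96 CPM, and 1.53 (SE 0.267) and 1.17 (SE 0.419, adjusted p = 0.375).

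ERP27, a protein of the endoplasmic reticulum related to disulfide isomerases, had 17.4 to 34.6 CPM against 8.15 to 17.9 CPM. The overlap was H2O replicate 3 (17.9 CPM) over CdCl2 replicate 2 (17.4 CPM), and the differences were 1.03 (SE 0.165) and 1.28 (SE 0.262, edgeR adjusted p = 0.227). TRIM50, a ubiquitin ligase, had 19.4 to 47.7 CPM against 9.75 to 28.6 CPM, and 0.94 (SE 0.217) in the 16. In the 12 it stood at 0.68 (SE 0.359, adjusted p = 0.501), and BPA went the other way, with 13.5 and 8.39 CPM below 20.0 and 17.5 CPM.

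Among the lower genes, INHA, the alpha subunit of inhibin, WDR54, a WD repeat protein, and ZNF395, a zinc finger protein, shared an arrangement in which replicate 4 was the highest in all 4 groups. INHA (chr2:219569162-219575713) had 1.69, 1.99, 5.17 and 12.6 CPM in H2O, 2.38, 1.22, 2.11 and 7.63 CPM in DMSO, and 2.38, 0.918, 3.74 and 15.6 CPM in TBTCl. Its difference was -1.65 (SE 0.372) in the 16, and in the 12 it was 3.99-fold lower (edgeR adjusted p = 0.249). For WDR54 the log2 differences were -1.54 (SE 0.360) and -1.71 (SE 0.459, adjusted p = 0.272), and for ZNF395 they were -1.33 (SE 0.341) and -1.27 (SE 0.347, adjusted p = 0.278). The gap between numbers 3 and 4 exceeded that between the sides for each of the 3, at 1.24 against 1.12 for INHA, 1.35 against 1.22 for WDR54 and 1.35 against 1.16 for ZNF395.

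HCAR3, a receptor for hydroxylated fatty acids with the near copy HCAR2, had 1.48 to 5.17 CPM against 5.68 to 8.51 CPM, with no overlap, and IL21R, a cytokine receptor, had 5.27 to 10.3 CPM against 14.7 to 24.4 CPM, also with none. HCAR3 stood at -1.34 (SE 0.241) in the 16 and -1.20 (SE 0.365, edgeR adjusted p = 0.314) in the 12. IL21R stood at -1.25 (SE 0.141) and -0.74 (SE 0.322, adjusted p = 0.453). The side means of IL21R went the other way in BPA, with 37.6 and 56.9 CPM against 39.3 and 35.7 CPM. Those of HCAR3 did so in TCDD, with 13.3 and 38.3 CPM against 24.9 and 21.7 CPM. ARHGAP45, a GTPase-activating protein, had 5.49 to 26.2 CPM against 18.3 to 57.6 CPM, with -1.31 (SE 0.336) and -1.26 (SE 0.321, adjusted p = 0.262). TMEM145, a membrane protein, had 1.96 to 4.64 CPM against 3.37 to 11.6 CPM, with -1.29 (SE 0.268) and -1.56 (SE 0.305, adjusted p = 0.227).

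In the 16 libraries, the 4 replicate numbers did not form 2 pairs of like libraries. Each library's deviation from its group mean was compared between groups. Within the 16 libraries, same-number deviations had a median correlation across genes of 0.639 (0.140 to 0.799 over 24 pairs). Those of the other number in the same side had a median of -0.300, and those of the other side -0.118. Within the 12 libraries the medians were 0.163, 0.0729 and -0.135, with same-number pairs from -0.461 to 0.514. Between the 2 sets, same-number libraries had a median of 0.361, those of the other number in the same side -0.0647, and those of the other side -0.186. Pairs of the same side with other numbers thus lay below those of the other side only within the 16. Deviations within a group sum to 0, which by itself pushes correlations of unlike numbers down.

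**Figure D5:**
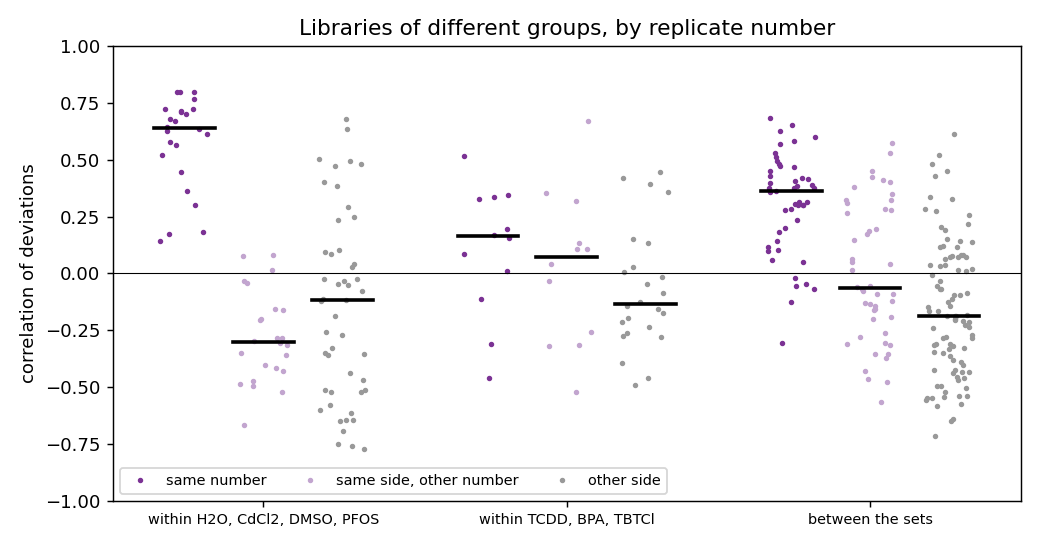
Correlation across genes between the deviations of 2 libraries from the mean of their group, 1 point for each pair of libraries from different groups, split by whether the pair shares the replicate number, only the side, or neither; black lines are medians. Pairs of the same number lie highest within the 4 groups of the split (median 0.639), and pairs of the same side with other numbers lie below 0 there (-0.300).

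The members divided accordingly. Of the 395 lower genes, number 1 was the lowest on average over the 4 groups in 324 and number 4 the highest in 311. Of the 336 higher genes, number 1 was the highest in 225 and number 4 the lowest in 208. Counts in the 12 libraries were 360 and 265 for the lower genes, and 278 and 204 for the higher ones. A pattern like that of CYP1A1 was taken from averages over the 4 groups, in which opposite gaps cancel. In it, the gaps between numbers 1 and 2 and between 3 and 4 were each below the gap between the sides divided by 3. It was found in 100 of the 336 higher and 56 of the 395 lower genes. None of these counts was made over all tested genes, so they describe the members only. In the 16 libraries, choosing genes by the split itself also favours extremes on the matching side.

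The number of genes called depended on which numbers were present. Without number 1 in all 4 groups 31 genes were called and without number 4 it was 32, while 1501 were called without number 2 and 2286 without number 3. Leaving out single libraries moved the count by more than 1.5 times for replicate 1 of H2O (351), CdCl2 (321) and PFOS (431), for DMSO replicate 2 (436), and for replicate 4 of H2O (334), CdCl2 (423), DMSO (374) and PFOS (400). The 731 calls treat 8 libraries per side as independent. With the replicate number as a random block in limma-voom, 3 genes were called, CYP1A1, MYOF and IL21R. With the counts summed per number, 2 sums against 2, none was called (edgeR, 723 genes at an unadjusted p under 0.05). Both fits used the 16 libraries from which the split was chosen. Their calls therefore describe the split and are no test of it or of these 3 genes.

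The responses to CdCl2 and PFOS were compared between the sides in the 16 libraries. For CdCl2 against H2O, no gene's response differed between replicates 1 and 2 and replicates 3 and 4 (edgeR, 0 called; 413 genes or 2.19% at an unadjusted p under 0.05; DESeq2 0 called). For PFOS against DMSO none did either (0 called; 480 genes or 2.55% unadjusted; DESeq2 0 called). With the replicate number as a fixed block both tests again called 0, and the unadjusted counts were 1912 for CdCl2 and 1520 for PFOS. Without single libraries these counts, unblocked, ran from 158 (without CdCl2 replicate 2) to 1188 (without CdCl2 replicate 4) and from 233 (without PFOS replicate 3) to 823 (without PFOS replicate 4). CYP1A1 in CdCl2 stood above H2O in all 4 numbers, by 26.5 against 16.1 CPM in replicate 1 and 3.65 against 2.04 CPM in replicate 4. With the side as a term in a fit of all 28 libraries, a choice made after seeing the data, the genes called per compound went from 4 to 4 for CdCl2, from 3 to 25 for PFOS, from 1743 to 2101 for TCDD, from 6588 to 7126 for BPA and from 27 to 53 for TBTCl. All 25 PFOS calls were lower than in DMSO.

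Measures of the libraries differed between the sides as well. In the 12 libraries, the share of counts in the 13 mitochondrial mRNAs was 3.98% to 5.16% in replicates 1 and 2 (median 4.65%) and 2.53% to 4.31% in replicates 3 and 4 (median 3.78%). The mean difference was 1.05 percentage points (exact permutation within groups, two-sided, p = 0.00926, the smallest that 216 arrangements can give; adjusted over 7 measures 0.0324). These arrangements treat the numbers of each group as unrelated. Same-number deviations of BPA and TBTCl correlated at 0.157 to 0.514, and if a number is shared by the groups only 6 arrangements exist, whose smallest exact p is 0.333. In the 16 libraries the medians were 3.91% and 3.14%, and all 13 mRNAs had positive differences, with a median of 0.43 and no member among them. The number of genes with a count was higher by 1140 in replicates 1 and 2 of the 12 libraries (exact permutation p = 0.00926, adjusted 0.0324), beside totals that were higher by 9.75 M on average (exact permutation p = 0.0833, adjusted 0.194). In the 16 libraries the median totals were 49.6 and 48.0 M. The shares of ribosomal protein genes, antisense genes and the 10 highest genes, and the scaling factor, did not pass (exact permutation, adjusted p of 0.292 to 0.870). The part of these measures in the differences between the sides was not tested.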

How the data were processed

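Poly(A)-selected RNA of 28 HepG2 cultures was sequenced from directional libraries, per the labels' protocols. The authors deposited whole-number read counts per gene, with the tools HTSeq, STAR, fastp and DESeq2 and the build GRCh38 named per the submitters' processing notes. Tool versions, annotation release and treatment of strand: not given in the sources used here. Of 63140 genes in the table, the last, possibly cut off, was not used. Gene types and coordinates are from GENCODE 29, which matched 58126 identifiers.

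Genes were kept by filterByExpr of edgeR 4.0.16 in R 4.3.3 (minimum count 10), which left 18849 with 99.96% of the counts. Counts were tested with edgeR's quasi-likelihood test with TMM scaling and Benjamini-Hochberg adjustment over all tested genes (threshold 0.05), with the treatment group as a term; residual degrees of freedom were 11 in the 16 libraries and 8 in the 12. DESeq2 1.42.0 and limma 3.58.1 served as alternatives. The SE is the size of the log2 difference over the square root of the F statistic. The fits were run on simulated counts drawn independently for each library. Such counts carry no deviation shared by a replicate number, so they cannot show how the fits behave under it. Library measures were compared by exact permutation within groups. Totals were 28.9 to 66.0 M counts.

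Equal replicate numbers were checked by correlating deviations from group means: all 24 pairs within the 16 libraries were over 0.1 (0.140 to 0.799), but not those within the 12 (from -0.461). The labels tie no library to an experiment, so p-values measure only the spread between these samples, which may be technical. Libraries within each group differed by more than sampling noise.

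The members, the 25 gene lists (439 entries, 399 tested) and the tests were chosen with earlier results of these data known. Named are IGF2 and CYP1A1, the 8 members with the largest difference in each direction (a symbol, at least 5 CPM in a side, the same direction in all 4 groups), and the 2 genes with the smallest p in the 12 libraries of each list with at least 3 members; 2 genes fell under 2 of these rules, and 30 genes were named. Some genes chosen this way or listed are not reported here. Genes beyond this were picked from the lists after their values were seen. Alternatives covered the tool, scaling, filter, libraries, groups and replicate block.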

Additional observations from a re-analysis of the deposited data

Results flagged for a closer look

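In the 8 libraries of a side of the 16, 2 values stood apart from the rest by Dixon's 95% criterion, among 72 sets of 8 libraries examined, where chance gives about 1 in 20. BHLHE40 in DMSO replicate 1 had 104 CPM, above the next highest of replicates 1 and 2 at 62.0 CPM. MSMO1 in CdCl2 replicate 3 had 220 CPM, below the next lowest of replicates 3 and 4 at 249 CPM.

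TRIM50 went in opposite directions: replicates 1 and 2 were both below replicates 3 and 4 in BPA, with a log2 difference of -0.78, and both above them in H2O, CdCl2, PFOS, TCDD and TBTCl. In DMSO the sides overlapped, with replicate 1 (19.4 CPM) below replicate 3 (26.6 CPM). The test by compound in the 12 libraries did not call TRIM50 (edgeR adjusted p = 0.464). The difference between BPA and H2O, CdCl2 or PFOS was not tested.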

How the results depend on the processing

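The 731 calls of the split in the 16 libraries became 1440 with DESeq2, 1529 without a low-count filter and 182 with all 28 libraries in the fit. With the replicate number as a random block they became 3, and with counts summed per number 0. They ran from 321 to 1070 without single libraries and from 31 to 2286 without single numbers, and were 62 without H2O, 328 without CdCl2, 230 without DMSO and 151 without PFOS. Other scalings and a minimum of 1 CPM gave 699 to 723. In the 12 libraries the count of 0 became 176 with DESeq2 (92 of them members), 688 without a filter (256 members), 88 with all 28 libraries (60 members), 196 without TCDD (86 members) and 2 with sums per number (1 member); the random replicate block gave 0. It ran from 0 to 481 without single libraries (0 to 204 members) and from 0 to 66 without single numbers (0 to 41 members). The 434 members at an unadjusted p under 0.05 became 286 without BPA and 175 without TBTCl, 297 to 581 without single libraries and 147 to 489 without single numbers.

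For responses by side, the filter alone changed the count of 0, to 29 for CdCl2 and 5 for PFOS without it. For the split by compound it became 126 with DESeq2, 864 without a filter, and 0 to 2809 without single libraries. With the replicate number as a fixed block these 3 tests called 0 genes each. The split itself cannot take a fixed block, since the number defines the side. The 2 library measures that passed became 0 without each number and without each group, where fewer arrangements remain. The share in the 10 highest genes turned from 0.130 to -0.520 points at the lowest (0.781 at the highest) without single numbers, -0.151 without number 2, and to -0.513 and -0.0881 without TCDD or BPA. JUN in the 16 libraries turned to 0.0214, 0.00412 and 0.0100 without replicate 4 of H2O, DMSO or PFOS, and lay between -0.302 and 0.246 without single numbers (0.0716 without number 2). Of 959 values of named genes in the 16 libraries, 5 reversed (all JUN) and 225 missed the threshold where the full fit did not; of 810 in the 12, none reversed and 91 passed it. Except where libraries or genes are fewer by construction, the cause was not tested. At these depths, levels near 3 counts (0.0454 to 0.104 CPM) carry no reliable difference.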
